A study of Mus musculus with 16 samples.

Results

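CA1 pyramidal neurons are the glutamatergic output cells of the hippocampus proper. They receive input from CA3 pyramidal neurons through the Schaffer collaterals and send axons to the subiculum, whereas granule cells (GCs) of the dentate gyrus (DG) send mossy fibers to CA3. In the adult mouse hippocampus *Wfs1* and *Spink8* are widely used to mark CA1, *Prox1* marks GCs, and *Cpne4* and *Grik4* are strongly expressed in CA3. Here the nuclei selected as CA1-type in microdissected DG were examined: 310 nuclei of 17015 that passed the filters on depth.

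A nucleus was selected when it held 3 or more RNA molecules (unique molecular identifiers, UMIs) summed over *Gm2115*, *4921539H07Rik*, *Gm10754*, *Gm2164*, *Spink8*, *Wfs1* and *Stac*, from 2 or more of these 7 genes, and at most 1 UMI summed over *Prox1*, *Gad2*, *Tshz2*, *Mog* and *Gja1*, which mark GCs, GABAergic neurons, other excitatory neurons, oligodendrocytes and astrocytes. *Spink8* encodes a secreted peptidase inhibitor, *Wfs1* the endoplasmic reticulum protein wolframin and *Stac* an adaptor of voltage-gated calcium channels. The other 4 genes are known only by their database names. The selection rests on measured RNA, so the levels of these genes are descriptions and carry no test.

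The DG of 4 wild-type (WT, labelled VV) mice and 4 mice homozygous for the V321L missense mutation of *Nrg1* (labelled LL) was frozen, and RNA and open chromatin (ATAC) were read from the same nuclei. Each genotype had 2 females and 2 males (F1, F2, M1 and M2), each mouse gave 1 library, and the labels give no age and no treatment. The mutation is carried by every cell, since it is a knock-in, and CA1 lies outside the DG, the dissected region. Where these nuclei came from was not tested. The libraries held 4326426 to 23582057 RNA UMIs and 6580616 to 25552769 ATAC counts, and 1515 to 3762 nuclei each.

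The libraries of the 2 genotypes stood apart in the RNA of GCs and of CA1-type nuclei, which bears on all comparisons by genotype below. In GCs, 7738 of 11356 genes passed the test between genotypes (68.1%), 38.4% higher and 29.7% lower in V321L. The median share of mitochondrial RNA in CA1-type nuclei was 0.0276% to 0.0797% in the WT mice and 0.215% to 0.851% in the V321L mice, and the median number of RNA UMIs was 2452.5 to 4926 and 5139 to 7612.5, with no overlap in either measure. Whether this came from genotype, dissection, nuclei preparation or sequencing cannot be told apart, since the 4 libraries of each genotype share it. Any pair of libraries shared 1 to 13 cell barcodes among their nuclei.

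CA1-type nuclei were found in all 8 mice. The WT mice gave 21 (F1), 24 (F2), 20 (M1) and 40 (M2) nuclei, which were 1.15%, 0.638%, 1.01% and 1.78% of their libraries. The V321L mice gave 69 (F1), 51 (F2), 8 (M1) and 77 (M2), which were 3.35%, 2.53%, 0.528% and 4.85%. Of the V321L mice 3 lay above every WT mouse and M1 lay below all of them, so the groups overlapped. The WT mean was 1.14% ± 0.474 and the V321L mean 2.81% ± 1.80 (SD over 4 mice each), a difference of 1.67 percentage points that did not pass a two-sided exact permutation test (p = 0.143, smallest possible 0.0286). With no upper limits on UMIs and genes V321L M1 lay at 1.71%, above WT F2 and M1, and the difference was 3.40 points (exact permutation p = 0.0857). With 5 UMIs of 3 genes required it lay at 0.528%, above 3 of the 4 WT mice (means 0.288% and 2.18%, exact permutation p = 0.0571). With the rule as given and without V321L M1 the difference was 2.43 points, with the smallest p that 35 splits allow (exact permutation p = 0.0286). Shares of a dissected tissue depend on where the cut fell, and deeper nuclei reach 3 UMIs more easily. With nuclei thinned to 1000 UMIs the means were 0.218% and 0.679% (exact permutation p = 0.143). Nuclei with fewer UMIs were left out, 384 to 1083 per WT mouse and 112 to 262 per V321L mouse, so the denominators changed unequally, and 2 to 5 selected nuclei remained per WT mouse and 1 to 16 per V321L mouse. The 95% Wilson interval of V321L M1, 0.268% to 1.04%, which covers counting error only, lay below the share of each other V321L mouse.

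**Figure D1:**
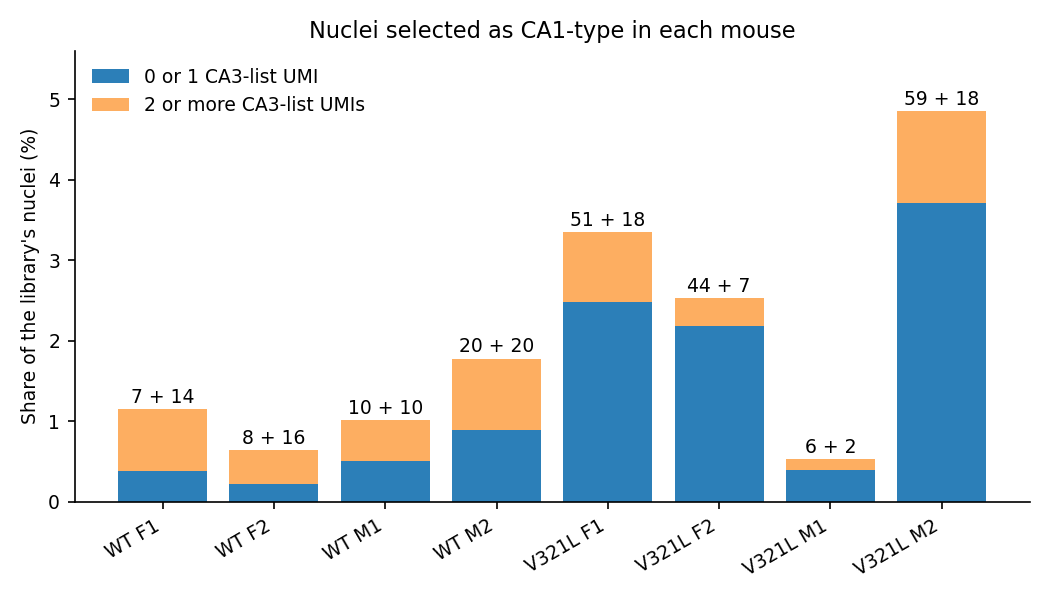
Nuclei selected as CA1-type as a share (%) of the nuclei of each mouse, with bars stacked by the number of UMIs of 8 CA3 marker genes in each nucleus and the 2 numbers of nuclei written above. The V321L bars are mostly blue (51, 44, 6 and 59 nuclei), and in the WT bars the orange part (14, 16, 10 and 20 nuclei) equals or exceeds the blue part.

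The selected nuclei lay nearer the threshold in WT than in V321L. In WT the median nucleus held 4 to 4.5 UMIs of the 7 genes, and 6 of 21 (F1), 10 of 24 (F2), 6 of 20 (M1) and 15 of 40 (M2) held exactly 3. In V321L the median was 7 (F1), 12 (F2), 16.5 (M1) and 8 (M2) UMIs, and 8 of 69, 2 of 51, 0 of 8 and 12 of 77 held exactly 3. Just outside the threshold, 4 to 20 WT nuclei and 2 to 17 V321L nuclei per mouse held 2 UMIs from 2 of the genes. Barcodes with few UMIs, which carry free RNA, held the 7 genes at 56.3 to 77.8 CPM (counts scaled to a common library total) in WT and 81.8 to 202 CPM in V321L, against 977 to 1597 and 1518 to 2140 CPM in the selected nuclei and 6.36 to 21.5 CPM in GCs.

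The 7 selecting genes did not contribute alike. *4921539H07Rik* was seen in 82 of 105 WT nuclei (78.1%) and 136 of 205 V321L nuclei (66.3%), and *Gm10754* in 64.8% and 62.9%. *Gm2164* was seen in 36.2% of WT and 76.1% of V321L nuclei. *Spink8* was seen in 8 of 105 WT nuclei (7.62%) and 108 of 205 V321L nuclei (52.7%), and *Wfs1* in 8 (7.62%) and 103 (50.2%). In GCs, which should lack these genes, *Spink8* was seen in 0.618% of WT and 1.63% of V321L nuclei and *Wfs1* in 0.57% and 2.5%, at a lower median depth of 1576.5 to 3109 and 3569 to 4841 UMIs. The textbook CA1 markers among the 7 genes were thus carried mainly by V321L nuclei, and the WT nuclei entered mainly through *4921539H07Rik* and *Gm10754*.

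Markers that the selection had not used showed 2 kinds of nuclei. A list of 8 CA1 genes (among them *Mpped1*, *Fibcd1*, *Pou3f1*, *Man1a*, *Ndst4*, *Gpr161* and *Ccn3*) summed to 650 CPM (F1), 278 CPM (F2), 1065 CPM (M1) and 718 CPM (M2) in WT and to 1338, 1646, 1941 and 1379 CPM in V321L. A list of 8 CA3 genes (*Iyd*, *Cpne4*, *Bok*, *Coch*, *Cdh24*, *Grik4*, *Nectin3* and *Csf2rb2*) summed to 1836, 2451, 991 and 1190 CPM in WT and to 270, 100, 116 and 428 CPM in V321L. The WT sums of the CA3 list all lay above the V321L sums, and those of the CA1 list all lay below them. The most abundant CA3-list gene was *Cpne4* or *Nectin3* in the WT mice, while *Iyd*, *Bok*, *Coch* and *Csf2rb2* were at 0 to 26.2 CPM in every mouse. Of this list GCs also carried *Cpne4*, at 222 to 458 CPM, and *Grik4*, at 136 to 207 CPM, but little *Nectin3*, at 10.1 to 44.9 CPM. By these markers the label of CA1 held for most of the V321L nuclei and not for most of the WT nuclei, as the division below shows, and the pooled set is called CA1-type below only as its rule defines it.

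Nuclei were split by their CA3-list UMIs, a division chosen after these values were seen. In WT 60 of 105 nuclei (57.1%) held 2 or more CA3-list UMIs (14 in F1, 16 in F2, 10 in M1 and 20 in M2), whereas in V321L 45 of 205 (22%) did (18, 7, 2 and 18). Of the 60 WT nuclei with 2 or more, 31 held no UMI of the CA1 list, and of the 45 with 0 or 1, 3 held none. In V321L the corresponding numbers were 14 of 45 and 5 of 160. Next to the cut, 7 WT nuclei held exactly 2 UMIs and 10 exactly 1, and 17 and 46 V321L nuclei did. In barcodes with few UMIs the CA3 list was at 502 to 527 CPM in WT and 188 to 328 CPM in V321L, so free RNA differed between genotypes in the same direction, and its part in this division was not tested.

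**Figure D2:**
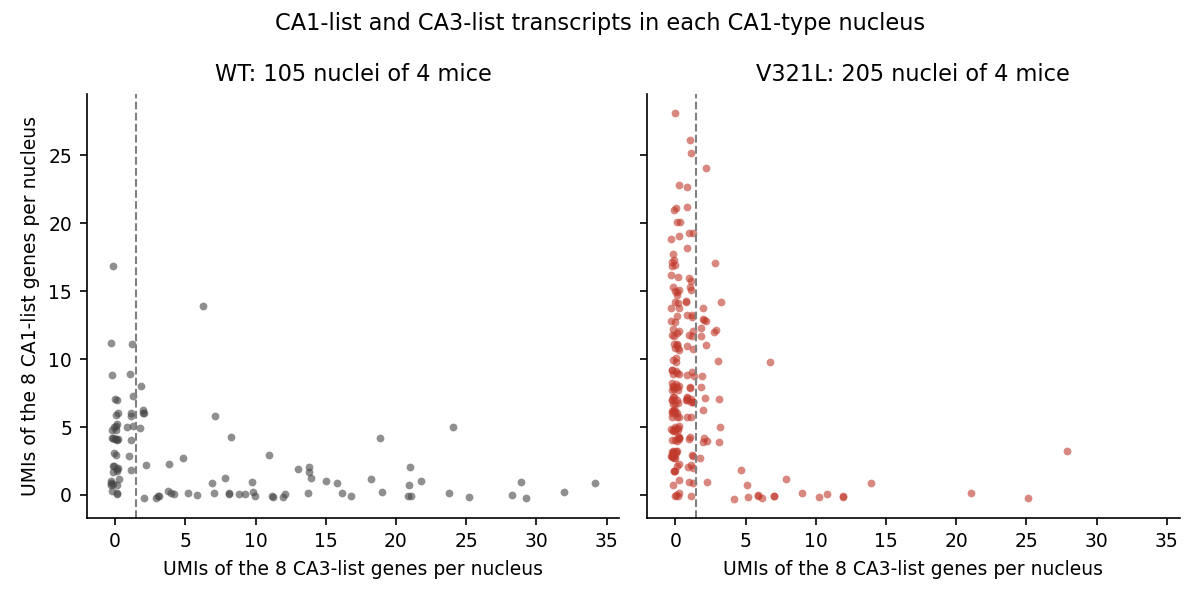
UMIs of the 8 CA1-list genes (vertical) against UMIs of the 8 CA3-list genes (horizontal) in each CA1-type nucleus of the 4 WT mice (105 points) and the 4 V321L mice (205 points), with a small random shift so that points do not hide each other; the dashed line marks the division at 2 CA3-list UMIs. Most V321L nuclei stand along the vertical axis with up to 28 CA1-list UMIs, while 60 WT nuclei lie right of the line, reaching 34 CA3-list UMIs and mostly near 0 CA1-list UMIs.

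*Trps1*, which is in neither list, also differed across this division. *Trps1*, a zinc finger repressor, was at 4041 CPM (F1), 5293 CPM (F2), 1811 CPM (M1) and 2313 CPM (M2) in the WT nuclei with 2 or more CA3-list UMIs and at 258, 190, 157 and 138 CPM in those with 0 or 1. In V321L it was at 440, 169, 127 and 977 CPM in the former and at 100, 85.7, 67.3 and 77.6 CPM in the latter. *Mpped1*, a metallophosphoesterase of the CA1 list, was at 12.9, 0, 0 and 0 CPM in the WT nuclei with 2 or more CA3-list UMIs and at 111, 75.9, 52.2 and 126 CPM in those with 0 or 1. The WT nuclei with few CA3-list UMIs carried the CA1 list at 949 to 1734 CPM, beside 1537 to 2063 CPM in V321L. *Ndst4*, which GCs also carried at 177 to 335 CPM, gave 775 CPM of this sum in WT F1 and 418 CPM in WT F2. In WT F2 4 of the 8 genes were at 0, and in WT M1 3 were.

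Even among nuclei with 0 or 1 CA3-list UMI, the classical markers were sparse in WT. *Gm2164* was seen in 32 of 45 WT nuclei (71.1%) and 136 of 160 V321L nuclei (85%), and *Stac* in 16 (35.6%) and 64 (40%). *Spink8* was seen in 3 of 45 (6.67%) and 88 of 160 (55%), and *Wfs1* in 6 of 45 (13.3%) and 87 of 160 (54.4%). The median depth of these nuclei was 3297 UMIs in WT and 5472.5 in V321L.

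The share of nuclei that were CA1-type with 0 or 1 CA3-list UMI averaged 0.497% ± 0.287 over the WT mice and 2.19% ± 1.37 over the V321L mice (SD), which did not pass the exact permutation test (p = 0.0857). The share with 2 or more was 0.645% ± 0.217 and 0.621% ± 0.462 (exact permutation p = 0.886). Neither difference exceeded the spread between mice by the test.

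**Figure D3:**
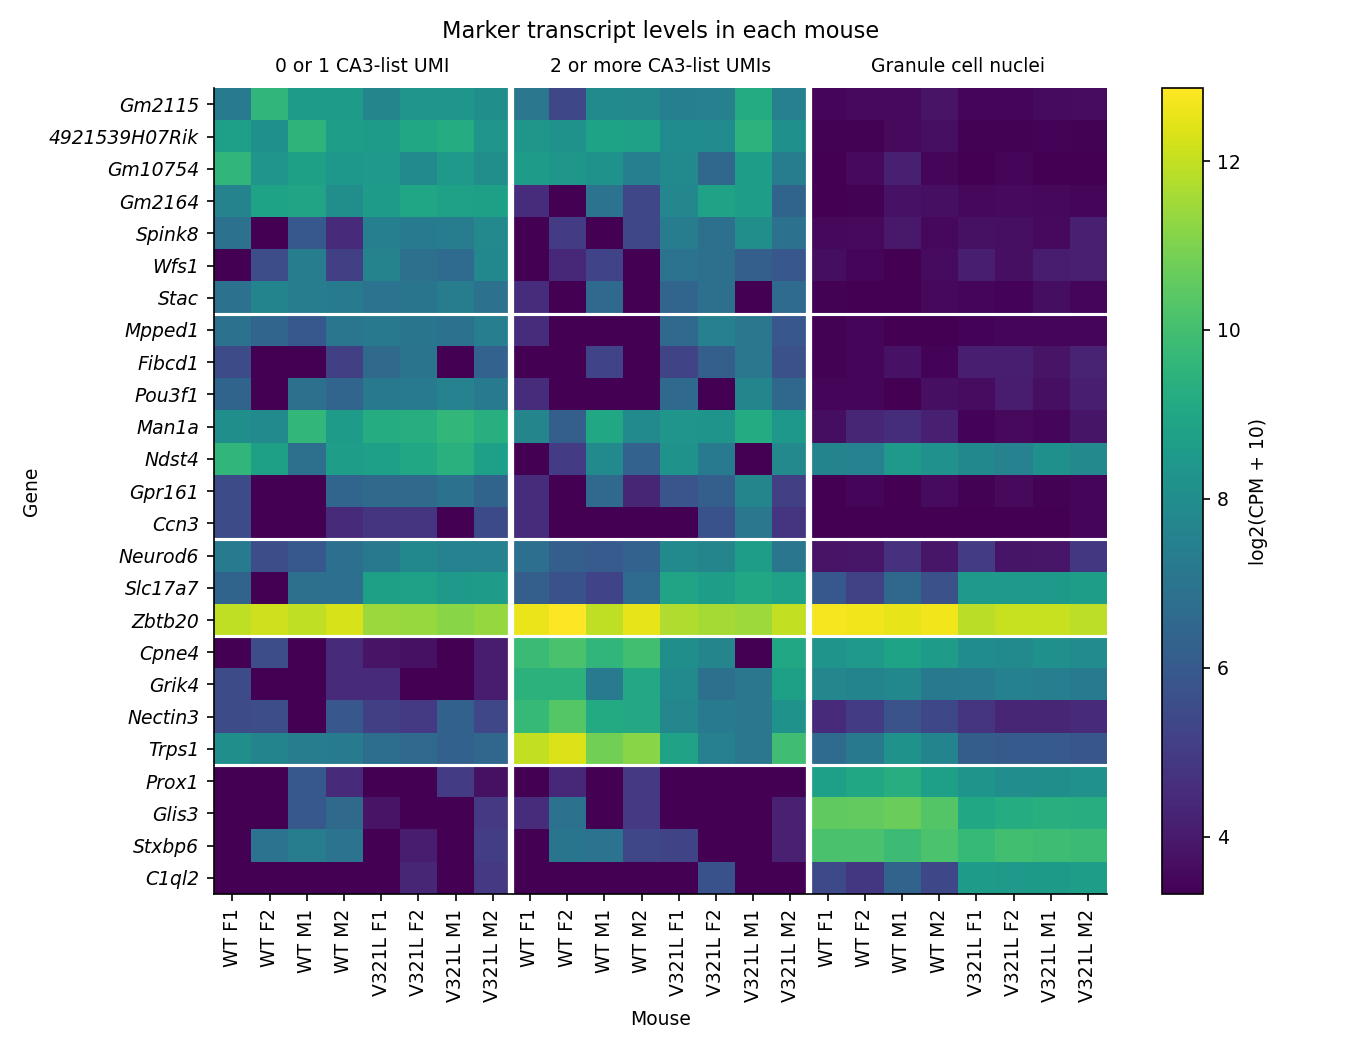
Levels as log2(CPM + 10) of the 7 selecting genes, 7 CA1-list genes, 3 genes of pyramidal neurons, 3 CA3-list genes with *Trps1*, and 4 genes of GCs (rows, divided by white lines) in each of 8 mice (columns) for CA1-type nuclei with 0 or 1 and with 2 or more CA3-list UMIs and for GCs. *Nectin3* and *Trps1* are brightest in the WT columns of the middle block, *Cpne4* and *Grik4* are bright there and in GCs and dark in the left block, and *Prox1* and *Glis3* are bright in the GC block.

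Markers of other cell types were low in the selected nuclei. The GC list of 8 genes (*Prox1*, *C1ql2*, *Dsp*, *Tdo2*, *Plk5*, *Glis3*, *Stxbp6* and *Plekha2*) summed to 9.56 to 211 CPM, led by *Stxbp6* or *Glis3* in the WT mice, against 2310 to 3526 CPM in GCs. The GABAergic list reached 312 CPM in WT M1, where *Adarb2* gave 257 CPM, and *Gad1*, *Pvalb* and *Vip* were at 0 in all WT mice. Mossy cell genes summed to 18.4 to 128 CPM, nearly all *Ajap1*, and genes of the subiculum and entorhinal cortex to 129 to 361 CPM, led by *Lmo3*. The astrocyte list was at 202 to 421 CPM in WT and 50.2 to 197 CPM in V321L, led by *Slc1a2* in all 8 mice, and the oligodendrocyte list was at 33.2 to 257 CPM. The vascular list reached 44.9 CPM and the Cajal-Retzius list 18.4 CPM at most, and microglial genes were at 50.5 to 129 CPM. The part of these nuclei in the results below was not tested.

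Compared with GCs of the same mouse, CA1-type nuclei differed in many genes. The selection acted on this contrast, so these values, mean differences of log2(CPM + 10) over 8 mice, are given without a test. Of 3271 genes with a mean of 50 CPM or more in CA1-type nuclei, 417 were higher and 415 lower than in GCs in every mouse. Genes under 50 CPM in CA1-type nuclei, such as *Prox1* and *Glis3*, are not among them, so these counts leave out genes high only in GCs. The gene with the largest difference was *Galntl6*, a member of the polypeptide GalNAc transferase family, at 3733 CPM against 33.9 CPM (6.44 ± 0.766 SD). *Chrm3*, the M3 muscarinic acetylcholine receptor, was 5.91 ± 0.783 (SD) higher. *Kcnq5*, a subunit of the M-type potassium channel that muscarinic receptors inhibit, was at 2234 against 77.2 CPM (4.91), and *Kcnc2*, a fast delayed rectifier subunit, was 4.51 higher.

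The other genes among the 10 with the largest differences were *Etl4* (5.16), the noncoding *Gm49678* (5.11), *Nell1* (4.92), *Man1a* (4.73), a Golgi mannosidase, *Runx1t1* (4.58), a transcriptional corepressor, and *Khdrbs3* (4.47), a splicing regulator. *Kcnc2* and *Gm49678* were more raised in the nuclei with 2 or more CA3-list UMIs (4.82 and 5.28) than in those with 0 or 1 (3.87 and 4.83), and *Galntl6* less so (5.35 and 7.14). The genes lowest against GCs included *Adarb2* (−5.55), *Glis3* (−5.29), a transcription factor, *Dock10* (−5.01), *Slc4a4* (−4.94), a bicarbonate transporter, *Stxbp6* (−4.94), *Lrrtm4* (−4.51), a synaptic adhesion protein, with a mean of −5.74 in V321L and −3.29 in WT, and *Prox1* (−4.51), which the rule itself kept low.

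Among genes that pyramidal neurons share, *Neurod6*, a bHLH transcription factor, was 2.78 higher than in GCs, in all 8 mice. *Slc17a7*, the vesicular glutamate transporter of both cell types, was 0.22 higher and *Zbtb20*, a repressor of the hippocampal lineage, 0.39 lower, small differences beside those above. The remaining genes of this list of 6 were lower as well. *Nrn1* was at −0.86 (lower in 6 of 8 mice), *Bcl11b* at −0.41 (lower in 6 of 8) and *Neurod2* at −0.37 (lower in 7 of 8). *Calb1*, which marks mature GCs and a part of CA1, was lower in all 8 mice (−2.31). Of the genes that mark position along the dorsal to ventral axis of CA1, *Dcn* was at 0 in all mice and *Grp* at 0 except 2.95 CPM in V321L F2, while *Etv1* was at 16.8 to 86.1 CPM, *Htr2c* at 0 to 110 CPM (highest in WT M1), *Lct* at 0 to 49.8 CPM (highest in V321L M1) and *Nr2f2* at 0 to 18.4 CPM. None of the 7 genes of this list passed the count filter of the genotype test, and no position was assigned.

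Chromatin accessibility was not used by the rule, and the contrast with GCs was tested there. GCs were also selected by marker RNA, and RNA and ATAC came from the same nuclei. Results at genes used in either selection, such as *Prox1*, *Spink8* and *Gm2164*, are therefore not independent of it. Over 25604 regions that were peaks in all 8 libraries (median length 993 bases, mm10 coordinates), 22875 passed the count filter and 1534 differed (6.71%; edgeR quasi-likelihood test with the mouse as block, adjusted p under 0.05): 346 were more accessible (1.51%) and 1188 less accessible (5.19%) in CA1-type nuclei. The higher calls were 22.6% of all calls, and 34.1% when library sizes were used without TMM scaling, which moved the median of all regions from −0.20 to −0.08. With nuclei of 0 or 1 CA3-list UMI 1323 of 22014 regions were called (6.01%), 77 higher (0.35%) and 1246 lower (5.66%), and with nuclei of 2 or more 9 and 553. A region had to be a peak in every library, of which CA1-type nuclei were at most 4.85%. Without V321L F2 817 regions were called.

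The starts of GC genes were less accessible in CA1-type nuclei. Of these genes, *Prox1* had its RNA limited by the rule. The region at the start of *Prox1*, the homeobox factor of GC identity (chr1:190170163-190171172), held 5.28 CPM on average against 41.9 CPM in GCs (log2 fold difference −2.98, SE 0.62, adjusted p = 0.000229), lower in 8 of 8 mice. The start of *C1ql2*, a synaptic organizer of mossy fibers (chr1:120340173-120341087), was at 9.65 against 66.1 CPM (−2.89, SE 0.47, adjusted p = 9.15e-07), also lower in all 8. The starts of *Dsp*, a desmosomal protein (−2.64, adjusted p = 0.011), and of *Stxbp6* (−2.24, adjusted p = 0.00395) were lower as well. At *Tdo2*, a tryptophan dioxygenase of GCs, no count was seen in CA1-type nuclei against 733 in GCs, which is at least 12.7-fold lower with 3 counts over all mice as the floor.

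The sequences of 4 starts are shown because the accessibility results turn on them. They are RefSeq sequence of GRCm38.p6, the assembly of mm10, 250 bases before the annotated start, written 5′ to 3′ along the gene's strand. Capitals mark matches on either strand to CAGATG, the E-box that neuronal bHLH factors bind, and to the GC box, spelled GGGCGG. The E-box CAGCTG was also searched, as were the AP-1 motif spelled TGANTCA and the CRE motif spelled TGACGTCA, none of which matched, and no searched motif contains another. *Prox1* (chr1:190170828-190171077, minus strand) and *C1ql2* (chr1:120340332-120340581, plus strand) represent starts less accessible in CA1-type nuclei. *Wfs1* (chr5:36988983-36989232, minus strand) and *Man1a* (chr10:54075738-54075987, minus strand) represent CA1 genes whose start had a region in all libraries.
Prox1: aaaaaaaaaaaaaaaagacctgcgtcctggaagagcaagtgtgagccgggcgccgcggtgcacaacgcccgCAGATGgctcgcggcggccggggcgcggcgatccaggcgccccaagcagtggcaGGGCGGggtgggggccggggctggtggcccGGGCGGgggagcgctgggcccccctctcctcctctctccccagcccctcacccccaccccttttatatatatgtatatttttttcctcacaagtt
C1ql2: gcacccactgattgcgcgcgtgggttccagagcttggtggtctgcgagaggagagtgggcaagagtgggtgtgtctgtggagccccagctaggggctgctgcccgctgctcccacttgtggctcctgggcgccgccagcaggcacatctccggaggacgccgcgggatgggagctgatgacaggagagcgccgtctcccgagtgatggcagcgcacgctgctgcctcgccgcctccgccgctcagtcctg
Wfs1: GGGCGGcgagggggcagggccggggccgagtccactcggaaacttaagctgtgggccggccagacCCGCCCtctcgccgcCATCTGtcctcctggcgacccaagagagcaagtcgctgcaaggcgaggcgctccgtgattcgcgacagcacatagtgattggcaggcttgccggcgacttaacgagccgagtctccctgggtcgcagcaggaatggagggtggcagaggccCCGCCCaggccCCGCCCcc
Man1a: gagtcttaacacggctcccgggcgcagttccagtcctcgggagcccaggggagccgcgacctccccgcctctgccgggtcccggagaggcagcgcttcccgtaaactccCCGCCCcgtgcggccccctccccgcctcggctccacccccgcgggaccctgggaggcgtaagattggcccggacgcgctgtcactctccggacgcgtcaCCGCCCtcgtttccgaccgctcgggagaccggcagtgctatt

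*Wfs1* held 1 match to CAGATG and 4 to GGGCGG, *Prox1* held 1 and 2, *Man1a* 0 and 2, and *C1ql2* none of either. Of 32851 promoters of this length, 14.4% held CAGATG, 13% CAGCTG, 6.75% TGANTCA, 1.55% TGACGTCA and 32.7% GGGCGG. A match describes letters in this window and is not a site.

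None of the 3 regions at starts of CA1 genes passed the test. The region over the *Wfs1* start (chr5:36988517-36989536) was at 39.4 CPM in CA1-type nuclei and 43.2 CPM in GCs (−0.11, SE 0.37, adjusted p = 0.925), higher in 3 of 8 mice. The *Man1a* start (chr10:54075322-54076301) was at 32.9 against 10.3 CPM (1.65, SE 0.57, adjusted p = 0.0531), higher in 7 of 8. A single region covered the neighbouring starts of *Gm2164* and *Pou3f1*, a POU-domain factor (chr4:124656975-124657949), at 64.3 against 35.4 CPM (0.79, adjusted p = 0.164). Of 37 listed genes 13 had such a region, so *Spink8*, *Stac*, *Neurod6* and most others could not be compared at their start.

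The regions with the largest differences lay mostly away from the listed genes. A region inside *Ccdc171* (chr4:83676146-83677140) was at 108 CPM (F1), 109 (F2), 82.8 (M1) and 56.6 (M2) in WT and at 24.6, 72.9, 22.8 and 107 CPM in V321L, against 0 to 3.4 CPM in GCs (5.99, SE 0.65, adjusted p = 2.91e-16). Those at chr13:39127630-39128730 (5.32), chr2:19392467-19393496 in *Msrb2* (4.40), chr8:80918665-80919862 (4.29), 38146 bases from *Gab1*, and chr15:62462407-62463379 (3.92) followed, each higher in all 8 mice. The 5 regions with the largest falls held no count in CA1-type nuclei, among them chr17:42358187-42359138 in *Ptchd4* (827 counts in GCs, at least 14.3-fold lower), whose RNA was also low, and chr12:91679172-91680143 in *Ston2* (747 counts, at least 12.9-fold lower).

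Counts were then summed over each gene with 2 kb on either side, an analysis added after the first results, which uses peaks of any library. Of 15677 genes 833 differed (5.31%), 428 higher (2.73%) and 405 lower (2.58%). The GC list was lower in 8 of 8 genes, with a median of −1.52 beside −0.07 for all genes, led by *Prox1* (−3.23, SE 0.47, adjusted p = 3.62e-07) and *C1ql2* (−2.43, SE 0.36, adjusted p = 8.71e-07). The *Prox1* value is not independent of the rule, which limited its RNA. The CA1 list, which the RNA rule had not used, was higher in 4 of the 7 genes tested, with a median of 1.17. *Mpped1* rose by 1.66 (SE 0.25, adjusted p = 1.46e-06), higher in 8 of 8 mice, and *Man1a* by 1.17 (SE 0.28, adjusted p = 0.00416), higher in 7 of 8.

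*Neurod6* had the largest gain among the listed genes. Its body was at 18 CPM (F1), 137 (F2), 118 (M1) and 136 (M2) in WT and at 104, 63.3, 56.8 and 67.8 CPM in V321L, against 2.65 to 13.3 CPM in GCs (3.60, SE 0.38, adjusted p = 4.29e-11). The CA1-type values lay above all GC values. *Spink8* was higher (2.54, SE 0.46, adjusted p = 6.45e-05) in 6 of 8 mice, with no count in WT F2 and V321L M2. In WT F1, M1 and M2, where its RNA was at 28.7, 18.4 and 22.5 CPM, its body was at 60.1, 30.7 and 23.4 CPM. Among the other selecting genes *Gm2164* was higher (0.70, adjusted p = 0.00179), while *Wfs1* (−0.09, adjusted p = 0.952), *Stac* (0.92, adjusted p = 0.2) and *Gm2115* (0.72, adjusted p = 0.354) did not pass.

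**Figure D4:**
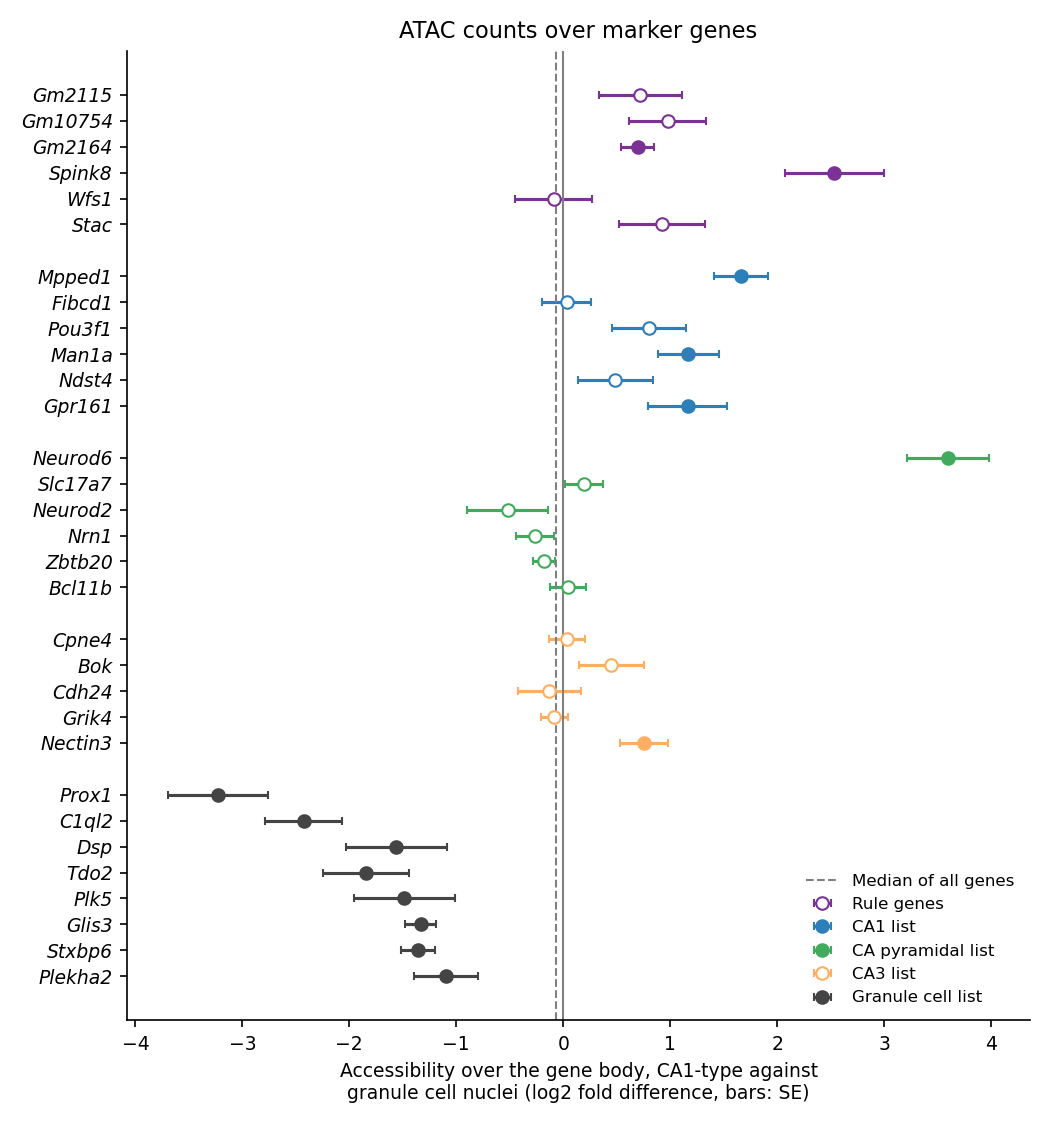
ATAC counts over the gene and 2 kb on either side, as the log2 fold difference of CA1-type nuclei from GCs with its SE (bars), over 8 mice. Filled points have an adjusted p under 0.05 and the dashed line is the median of all genes; the 8 GC genes lie left of it between −3.23 and −1.10, and *Neurod6* (3.60), *Spink8* (2.54) and *Mpped1* (1.66) lie farthest right.

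The CA3 list was higher in 1 of 5 genes, *Nectin3*, an adhesion protein (0.76, adjusted p = 0.0291), a call that was lost when any of WT F1, WT M1 or V321L F1, F2 or M2 was left out. In nuclei with 0 or 1 CA3-list UMI 301 of 15329 genes were called (1.96%), with 3 of the CA1 list (median 1.26) and 5 of the GC list (median −2.01) among them, and in nuclei with 2 or more 151 of 15130 genes were called. Nuclei with few and with many CA3-list UMIs were also compared within each mouse. None of 1310 genes passed (0%; 66 had an unadjusted p under 0.05), with *Cpne4* at −0.66 (adjusted p = 0.995) and *Grik4* at −0.52 (adjusted p = 0.938) in those with few. The CA1-type nuclei of a mouse held 56574 to 466576 ATAC counts, which limits what such a test can detect.

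Genotype was compared over mice with RNA summed per mouse over all CA1-type nuclei. Of 2602 genes that passed the filter on low counts 1075 differed (41.3%; edgeR quasi-likelihood test, adjusted p under 0.05), 597 higher (22.9%) and 478 lower (18.4%) in V321L, and for 910 (35%) the 4 values of one genotype did not overlap those of the other. These shares are the background of the counts over all CA1-type nuclei below, and 68.1% is that of GCs. A gene that is high in one genotype can pass the filter through it alone, so counts and medians over genes tested describe those genes and not whole lists. With nuclei of 0 or 1 CA3-list UMI 265 of 1018 genes were called (26%, the background of counts in those nuclei), and with nuclei of 2 or more 403 of 1506. A sum per mouse does not by itself separate fewer nuclei of a type from less RNA per nucleus.

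Ribosomal protein genes were among the 10 largest rises. *Rplp1*, a ribosomal stalk protein, was at 0 in the 4 WT mice and at 361 CPM (F1), 195 (F2), 116 (M1) and 384 (M2) in V321L, at least 46.8-fold higher with 3 counts over the WT mice as the floor. *Mt3*, a metallothionein of the brain, *Ndufa13*, a subunit of respiratory complex I, and *Rpl41* were likewise at 0 in WT and at least 29.1-, 28.2- and 24.5-fold higher. The small GTPase *Arf5*, *Rps13* and *Doc2b*, a calcium sensor of vesicle release, each held 1 UMI over the 4 WT mice and 146, 136 and 118 UMIs over the V321L mice. The initiation factor *Eif1* and *Rps7* each held 2 UMIs in WT and 245 and 192 in V321L. These WT counts are too few for a fold change. All of these genes rose in GCs as well, by 2.53 for *Doc2b* and 4.01 to 5.52 for the rest, and none of these passed the test of the difference between the cell types.

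Lists of these functions are given by their sums over all members, since 14 of 83 ribosomal protein genes and 15 of 83 genes of oxidative phosphorylation passed the count filter, which a gene high in V321L can pass through V321L alone. The 83 ribosomal protein genes summed to 354 to 753 CPM in the WT mice, where 37 to 52 of them were at 0, and to 3749 to 10849 CPM in the V321L mice. In GCs, where 80 of the 83 were tested and all 80 rose, the sums were 467 to 1209 and 8599 to 18432 CPM. The 83 nuclear genes of oxidative phosphorylation summed to 956 to 1120 CPM in WT and 3798 to 8647 CPM in V321L. Of these *Ndufs4*, the most abundant member in WT F1 and M2, was at 0.20 (adjusted p = 0.636) and *Ndufs1* at 0.67 (adjusted p = 0.0562).

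The 13 mitochondrially encoded transcripts summed to 937 to 1195 CPM in WT and 2505 to 8906 CPM in V321L. Among them *mt-Co3*, a subunit of respiratory complex IV, was at 115 CPM (F1), 126 (F2), 91.8 (M1) and 78.6 (M2) in WT and at 1521, 643, 663 and 1970 CPM in V321L (3.65, adjusted p = 1.70e-06), and the share of mitochondrial RNA moved with them as given above. The 11 heat shock chaperones summed to 362 to 698 CPM and 730 to 2133 CPM. Their most abundant member in all V321L mice, *Hsp90ab1*, rose by 1.92. The sums of the 2 genotypes did not overlap for any of these 4 lists.

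Long noncoding RNAs that stay in the nucleus also changed. *Malat1*, a nuclear speckle RNA, rose by 2.28 (SE 0.14, adjusted p = 2.19e-09) and *Meg3* by 1.69 (SE 0.17, adjusted p = 1.28e-06), and 5 of 9 RNAs of this list rose and 2 fell. The largest falls were of *Gm32647* (−4.53) and of *Gm42418* (−4.43, SE 0.32, adjusted p = 4.08e-08), whose locus overlaps ribosomal RNA sequence. *Gm42418* was at 7402 CPM (F1), 2746 (F2), 7049 (M1) and 3469 (M2) in WT and at 300, 130, 199 and 264 CPM in V321L, with no overlap. It fell by 4.98 in GCs and by 4.37 in nuclei with few CA3-list UMIs. *Gm26917* fell by 3.31 and, in GCs, by 3.41.

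The other 7 of the 10 largest falls included *Trps1*, given above by CA3-list UMIs. Over all CA1-type nuclei *Trps1* was at 3060 CPM (F1), 4161 (F2), 1230 (M1) and 1341 (M2) in WT and at 204, 97.4, 82.9 and 336 CPM in V321L (−3.58, SE 0.41, adjusted p = 3.25e-06). *Cdh9*, a cadherin of CA3 and GC synapses, fell by 3.56, *Car10* by 3.59, *Unc5d*, a netrin receptor, by 3.53, *Maml2*, a Notch coactivator, by 3.41, and *Ccbe1* and *Edil3* by 3.20 and 3.18. None of these 7 genes passed the count filter in the nuclei with 0 or 1 CA3-list UMI. When V321L M1 was left out of those nuclei, *Trps1* could be tested and was not called (−0.76, adjusted p = 0.136).

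Genes of the marker lists also differed between genotypes, and the part of the division by CA3-list UMIs in this was not tested. Of the CA3 list *Cpne4* (−2.91, adjusted p = 1.26e-05), *Nectin3* (−2.90) and *Grik4* (−2.37) fell, 3 of 3 tested. Of the CA1 list 4 of 5 tested rose (median 1.24): *Pou3f1* by 2.45, *Ndst4*, a heparan sulfate enzyme, by 1.24, *Man1a* by 1.11 and *Mpped1*, at 38.3, 16.8, 18.4 and 56.1 CPM in WT and 119, 127, 116 and 127 CPM in V321L. In nuclei with 0 or 1 CA3-list UMI 1 of 3 CA1 genes rose, *Man1a* (0.98, adjusted p = 0.0188), and *Ndst4* was at 0.40 (adjusted p = 0.371). Of the selecting genes, for which no test is given, *Spink8* was at 28.7, 16.8, 18.4 and 22.5 CPM in WT and 160, 136, 182 and 185 CPM in V321L, and *4921539H07Rik* averaged 398 ± 114 and 424 ± 146 CPM (SD over 4 mice).

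Among genes of all pyramidal neurons, *Slc17a7* rose by 2.65 (SE 0.25, adjusted p = 6.74e-07). It was at 66.9 CPM (F1), 33.7 (F2), 55.1 (M1) and 95.4 (M2) in WT and at 430, 425, 381 and 384 CPM in V321L, and it rose by 2.60 in nuclei with few CA3-list UMIs and by 2.53 in GCs. *Neurod6* rose by 1.21 and *Bcl11b*, a zinc finger factor, by 1.11, and *Zbtb20* fell by 0.92. The *Bcl11b* call was not made in nuclei with few CA3-list UMIs (0.67, adjusted p = 0.0789), where *Zbtb20* fell by 0.49.

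Receptor and channel genes are given beside the 41.3% of all genes that were called. Of 7 AMPA and NMDA receptor subunits 3 rose and 1 fell (median 0.22), with *Gria1* at 0.35 (adjusted p = 0.0407), *Gria2* at 0.00 (adjusted p = 0.992) and *Grin2a* at 0.11 (adjusted p = 0.577). Of 6 kainate and metabotropic glutamate receptors 5 fell and 1 rose (median −1.46): the kainate subunit *Grik2* fell by 1.81 (SE 0.17) and the presynaptic receptor *Grm7* was at −1.12 (SE 0.16), and in nuclei with few CA3-list UMIs they were at −1.06 and −0.62, both called. Of 9 GABA-A receptor subunits 3 fell and 1 rose, of 17 potassium and HCN channels 6 fell and 4 rose, and of 13 calcium and sodium channels 4 fell and 2 rose. The called shares of the GABA-A subunits and of the calcium and sodium channels lay near that of all genes. In nuclei with few CA3-list UMIs, where 26% of all genes were called, 1 of 8, 1 of 12 and 2 of 11 of the last 3 lists were called, a change that was not tested.

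Synaptic and signalling genes are read against the same background. Of 14 genes of vesicle release 5 rose and 4 fell, with the active zone scaffold *Rims1* at −1.35 (adjusted p = 1.15e-05). Of 12 postsynaptic density genes 5 rose and 4 fell, with the adhesion protein *Nlgn1* at −1.21 (adjusted p = 2.24e-06). Of 16 calcium-dependent kinases and phosphatases 10 rose and 2 fell (median 0.93). Of 3 immediate early genes tested *Nr4a1*, an orphan nuclear receptor, rose by 2.58 and *Bdnf* was at 0.82 (adjusted p = 0.0545).

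Of 17 neuregulin, ErbB and neuregulin-processing genes 3 passed the count filter. *Nrg3*, a neuregulin whose transcript is abundant in forebrain neurons, fell by 0.84 (SE 0.13, adjusted p = 7.73e-05) and by 1.36 in GCs. *Nrg1*, the mutated gene, was at −0.36 (SE 0.41, adjusted p = 0.5) in all CA1-type nuclei and at −1.09 (adjusted p = 0.0487) in those with few CA3-list UMIs. A level of its mRNA is no check of the labels, since the mutation is a change of 1 codon. *Adam10*, a sheddase, was at 0.04 (adjusted p = 0.937). Of 14 genes that the study associated with semilunar granule cells, chosen on these samples, 2 of 3 tested rose, *Chgb* by 0.93 and *Mdh1* by 2.53.

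**Figure D5:**
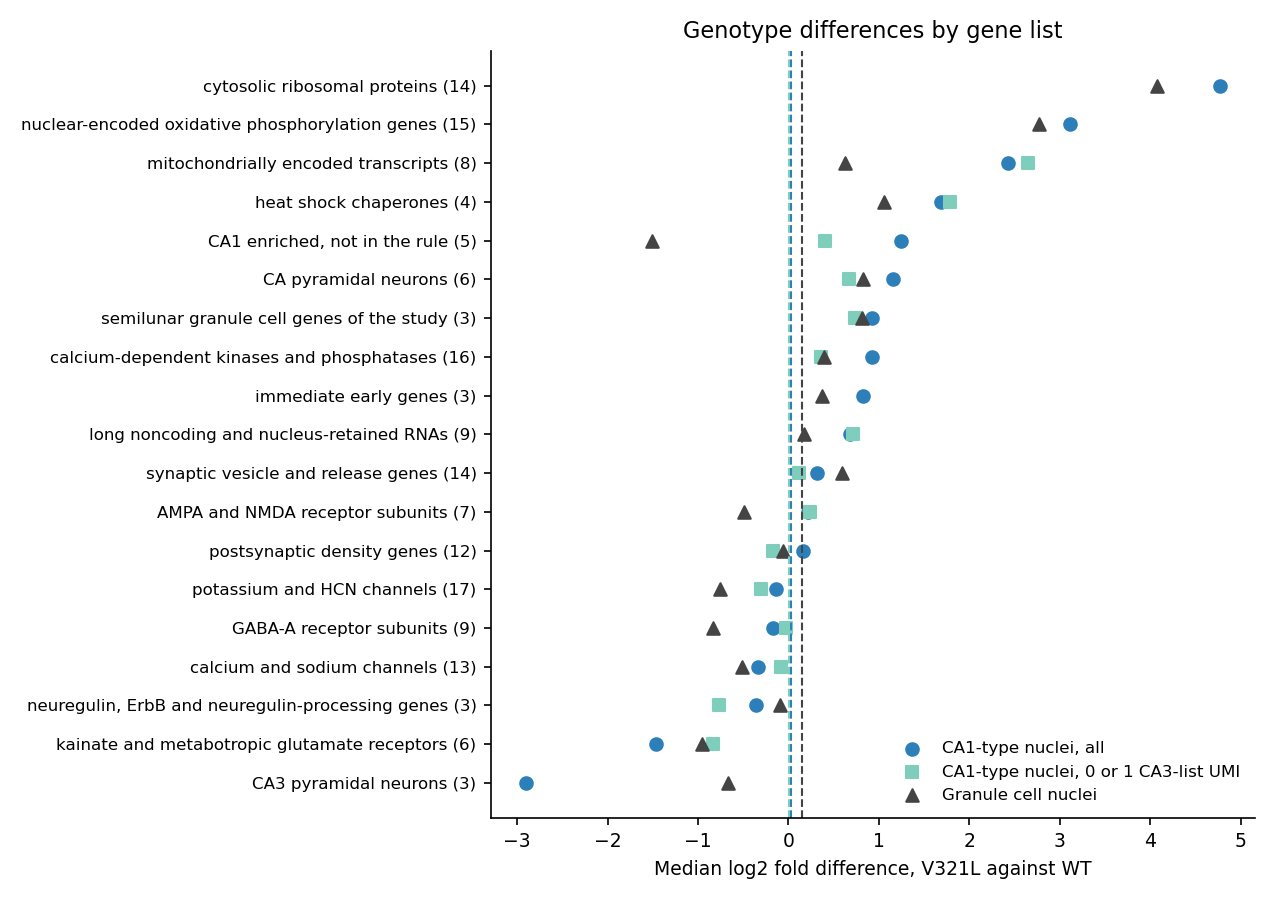
Median log2 fold difference of V321L from WT over the genes of each list that passed the count filter, for lists with 3 or more such genes (number in parentheses), in all CA1-type nuclei, in those with 0 or 1 CA3-list UMI and in GCs; dashed lines are the medians of all genes. Lists of which few genes passed, such as 14 of 83 ribosomal protein genes (4.77) and 3 of 8 CA3-list genes (−2.90), lie at the ends, and their medians stand for the genes that passed and not for the lists.

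The genotype difference of CA1-type nuclei was then compared with that of GCs of the same mice. Of 7583 genes 278 differed (3.67%; edgeR quasi-likelihood test of the interaction), 181 with a higher (2.39%) and 97 with a lower (1.28%) coefficient in CA1-type nuclei. The higher calls were 65.1% of all calls and 47.3% without TMM scaling, which moved the median of all genes from 0.13 to −0.03. On simulated data this test recovered 1 of 100 genes changed 2-fold and 20 of 100 changed 4-fold, so a gene that was not called may still have differed. The simulation gave all genes the same spread and GCs no genotype difference, so these rates are not those of the real data. With the nuclei of 0 or 1 CA3-list UMI 100 of 7166 genes were called (1.4%), 86 higher (1.2%), and without WT M1 498 (417 higher). Against CA3-type nuclei in place of GCs 54 of 2576 genes were called (2.1%), and the split was the other way, with 15 higher and 39 lower. This set, chosen by marker RNA among the remaining nuclei, held 160 nuclei, with 5 in V321L F2 and 5 in V321L M1. Fewer genes could be tested there, and the reason for the other split was not tested.

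The 5 genes with the highest coefficients were low in GCs, at 0.456 to 8.66 CPM on average in either genotype. *Acss1*, *Cdh6* and *Tmem200a* did not pass the count filter in GCs alone, so their coefficients rest on GC counts near 0 and are given as values only, with no call. *Plekhg1* and *Cdh6*, and *Pcsk5* and *Rerg* below, did not pass it in CA1-type nuclei alone, and their coefficients are likewise values only. *Acss1*, a mitochondrial acetyl-CoA synthetase, had a coefficient of 3.84 (SE 0.84): it was at 38.3, 0, 18.4 and 16.8 CPM in the WT and 98.9, 174, 133 and 79.3 CPM in the V321L CA1-type nuclei, and at 3.15 and 1.34 CPM on average in GCs. *Plekhg1* (3.71), the cadherin *Cdh6* (3.62), *Man1a* (3.41) and *Tmem200a* (2.67) followed. Within CA1-type nuclei *Tmem200a* was at 150 CPM in WT and 173 CPM in V321L on average (0.23, adjusted p = 0.451), and in GCs at 3.36 and 0.456 CPM, with 0 in V321L M1 and M2. *Man1a* rose in CA1-type nuclei and fell in GCs by 2.47, where it was at 8.66 and 2.03 CPM. In nuclei with 0 or 1 CA3-list UMI the coefficient of *Man1a* (3.19) passed. Those of *Plekhg1*, *Acss1*, *Tmem200a* and *Cdh6* were 3.45, 3.78, 2.57 and 2.93.

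The 5 genes with the lowest coefficients were not called in nuclei with 0 or 1 CA3-list UMI. *Unc5d* and *Cdh9* did not pass the count filter of the genotype test there, so a missing call does not show that a difference was absent. *Unc5d* (−2.99), *Cdh9* (−2.95) and *Dpf3*, a subunit of the BAF chromatin remodeler (−2.77), had coefficients that passed over all CA1-type nuclei. Those of the proprotein convertase *Pcsk5* (−2.96) and the RAS-like *Rerg* (−2.75) are values only, as said above. After thinning to 1000 UMIs 5 of these 10 genes could be tested, none was called, and *Unc5d* (0.36), *Man1a* (−0.88) and *Cdh9* (0.34) changed sign. *Dpf3* was at 201, 236, 184 and 112 CPM in WT and 14.5, 14.8, 0 and 38.4 CPM in V321L CA1-type nuclei, and at 133 and 126 CPM in GCs. With 0 or 1 CA3-list UMI the values were −2.50 for *Unc5d*, −2.10 for *Pcsk5*, −1.78 for *Cdh9* and 0.18 for *Dpf3* (adjusted p = 0.985, edgeR). *Rerg* was at 6.80 (adjusted p = 0.594, edgeR). No sign is read from this value, since *Rerg* did not pass the count filter even over all CA1-type nuclei. The 3 CA3-list genes tested, *Cpne4*, *Grik4* and *Nectin3*, also had lower coefficients over all CA1-type nuclei (median −2.09).

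No genotype difference in accessibility passed the test within CA1-type nuclei. None of 3054 regions (0%; 112 at an unadjusted p under 0.05) and none of 7373 gene bodies (292 at an unadjusted p under 0.05) passed the edgeR test. The shared regions held between 36758 and 246809 counts per mouse. The size of difference that this test could detect was not simulated, so the absence of calls does not show that there was none.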

How the data were processed

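Per the labels, nuclei of frozen DG were isolated per animal and RNA and ATAC were read with the 10x Multiome kit; the authors made the deposited count matrices (RNA UMIs per gene and ATAC counts per peak of each library) with the Cell Ranger ARC pipeline on mm10, and the submitters' processing notes also name Seurat and Signac. Members and gene lists were chosen with earlier results of these data known.

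Nuclei had 501 to 8916 UMIs, 251 to 3307 genes, under 2.787% mitochondrial RNA and 500 or more ATAC counts. Counts were summed per mouse and tested with edgeR 4.0.16 (filterByExpr, TMM, quasi-likelihood, Benjamini-Hochberg; R 4.3.3), with mouse as block between cell types; shares were tested with exact permutation (scipy 1.17.1). Peaks were merged with bedtools 2.31.1. Doublets (scrublet in scanpy 1.11.5, scores over 2 SD above the library mean) were 2.92% to 4.62% of nuclei, stayed in, and were left out as an alternative, since 13 members were marked. DESeq2 1.42.0, other filters, thresholds and thinning to 1000 UMIs were alternatives. On simulated genotype data with 100 genes changed 4-fold, 69 were recovered, and of 100 changed 2-fold, 14. For the difference between cell types 20 and 1 were recovered. Both simulations gave all genes the same spread and left most genes unchanged, unlike these data.

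Genes were named by rule: the 10 largest rises and falls among calls at 50 CPM or more without overlap, 5 in each direction for the difference between cell types, and up to 4 of each of 30 lists. The labels do not say that mice came from separate litters. The p-values weigh each difference against the spread between these mice only. Some genes that the rule names are not reported here.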

Additional observations from a re-analysis of the deposited data

Results flagged for a closer look

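In 4 of 72 groups of 4 mice a single mouse stood apart by Dixon's criterion, which chance flags in about 1 of 20 groups. In WT, *Arf5* was at 18.4 CPM in M1 and 0 in the others, *Doc2b* was at 18.4 CPM in M1 and 0 in the others, and *Rps13* was at 8.42 CPM in F2 and 0 in the others. Each of these values is 1 UMI, and 1 UMI among zeros always meets the criterion. In V321L, *Pou3f1* was at 182 CPM in M1, which held 8 nuclei, and at 119 to 127 CPM in the others.

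The coefficient of the difference between the genotype effects of CA1-type nuclei and GCs passed the test for *Man1a* (3.41), *Unc5d* (−2.99), *Cdh9* (−2.95) and *Dpf3* (−2.77). *Plekhg1* (3.71), *Pcsk5* (−2.96) and *Rerg* (−2.75) did not pass the count filter in CA1-type nuclei alone, so their coefficients are values only. *Acss1* (3.84), *Cdh6* (3.62) and *Tmem200a* (2.67) did not pass the count filter in GCs alone, so their coefficients rest on GC counts near 0 and are values only, and *Tmem200a* was at 0.23 (adjusted p = 0.451, edgeR) within CA1-type nuclei. After thinning to 1000 UMIs *Unc5d* (0.36), *Man1a* (−0.88) and *Cdh9* (0.34) changed sign, *Dpf3* and *Pcsk5* were not called, and the others could not be tested. The share of nuclei with 2 or more CA3-list UMIs, 57.1% in WT and 22% in V321L, moved with them, and its part was not tested. In nuclei with 0 or 1 such UMI the coefficient of *Man1a* (3.19) passed, and those of *Unc5d* (−2.50), *Cdh9* (−1.78) and *Dpf3* (0.18) did not. *Unc5d* and *Cdh9* did not pass the count filter of the genotype test in those nuclei. The values only were 3.45 for *Plekhg1*, −2.10 for *Pcsk5* and 6.80 for *Rerg*.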

How the results depend on the processing

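The division by CA3-list UMIs and the sums over gene bodies were chosen after seeing the data. The difference in share was −0.0242 points for nuclei with 2 or more CA3-list UMIs, 3.40 with no upper limits on UMIs and genes, 0.461 after thinning, and 0.991 to 2.43 with each mouse left out, lowest without V321L M2 and past the test only without V321L M1. Genotype calls were 2498 with no filter on low counts, 3 after thinning (46 genes tested), 207 with 5 UMIs from 3 genes, 265 with 0 or 1 and 403 with 2 or more CA3-list UMIs, 414 with 0 or 1 without V321L M1, and 820 to 1522 with each mouse left out. Interaction calls were 3 after thinning, 54 of 2576 genes tested (15 higher) against CA3-type nuclei, 100 and 93 by CA3-list UMIs, and 181 (without WT F2) to 498 (without WT M1). Region calls were 562 with 2 or more CA3-list UMIs and 817 (without V321L F2) to 1554; gene body calls were 301 and 151 by CA3-list UMIs and 491 (without V321L F2) to 907. After thinning the coefficients of *Unc5d*, *Man1a* and *Cdh9* were 0.36, −0.88 and 0.34; with 0 or 1 CA3-list UMI those of *Rerg* and *Dpf3* were 6.80 and 0.18; with 2 or more, *Gpr161*'s gene body was at −0.018; the cause was not tested.

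Same-numbered mice share only a label: their deviations correlated at −0.0624 to 0.0293. With the replicate block the share gave p = 0.25 by exact sign flips (smallest 0.125), 1029 genes and 0 regions were called. Among values of single genes and regions, 697 kept direction and call, 56 lost the call and 6 reversed over the alternatives. Between 8 and 77 nuclei per mouse limit every comparison.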
